A study of Mus musculus with 5 samples.

Results

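Thick ascending limb cells were chosen from 1 pooled count matrix of mouse kidney by their own RNA. A barcode, the short tag that marks the RNA of 1 droplet, was taken as a thick ascending limb cell when it held at least 1000 unique molecular identifiers (UMIs, each standing for 1 captured RNA molecule), at least 200 genes and at most 25% of its UMIs on genes of the mitochondrial genome, with at least 2 UMIs of Slc12a1, at least 3 of Umod, at most 1 of Slc12a3, at most 1 of Lrp2 and 0 of Ptprc. The rule found 479 barcodes among 53809 that passed the limits on depth, genes and mitochondrial share, a share of 0.890%. The study compared kidneys of mice after unilateral ischemia-reperfusion (UIR), a model of acute kidney injury (AKI), with sham kidneys, and its groups were AKI day 1, AKI day 3, AKI day 14, AKI day 28 and Sham, with 1 sample each. Per the study's methods the mice were male, of the C57BL/6J strain and 6 to 8 weeks old, the left renal pedicle was clamped for 35 minutes with the right kidney left intact, and sham mice had the same surgery without the clamp. Per the labels a kidney sample came from 3 mice, and no barcode could be tied to a mouse. The matrix held 5 libraries, told apart by the number at the end of each barcode, and the labels do not tie that number to a group. The study's methods count more matrices than that, so each of the 5 may merge several. The libraries are therefore called 1 to 5 by that number, no comparison by condition was made, and no library was treated as a replicate of another. The labels also name the cell type as "Goblet cell". All 8 goblet cell markers examined, among them Muc2, Tff3 and Agr2, were at 0 UMIs in the 479 barcodes.

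The thick ascending limb is the segment of the nephron that takes up salt without water and so dilutes the urine and builds the salt gradient of the medulla. Salt enters its cells through the furosemide-sensitive cotransporter NKCC2, the product of Slc12a1, while the potassium channel ROMK, the product of Kcnj1, returns potassium to the lumen and keeps the lumen positive. That voltage drives sodium, calcium and magnesium between the cells through claudin pores, and the segment also secretes uromodulin (Umod), the most abundant protein of normal urine, and epidermal growth factor (Egf). Lcn2 encodes lipocalin 2, also called neutrophil gelatinase-associated lipocalin, a carrier of iron-binding siderophores that appears in urine after kidney injury and that is known to come from the distal nephron as well as from neutrophils.

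Promoter stretches of 5 picked genes are shown. Lcn2 defines the contrast between Lcn2-high and Lcn2-free cells, Cxcl2, Icam1 and Nfkbia were higher beside it in libraries 1 and 2, and Umod marks the cells. They are not the 5 genes with the largest differences in that contrast, among which were Clu and Egf. They are RefSeq sequences on build GRCm38.p6, read 5′ to 3′ on the strand of the gene, from 250 bases before the RefSeq start and ended before the first GENCODE exon. Letters that match a searched motif are in capitals. The motifs were GGGA, any 4 bases and CC for NF-kappaB, TGANTCA for AP-1, TTCNNNGAA for STAT and TATAAA for the TATA box, each on both strands, and motif matches may overlap. The Lcn2 stretch lies at chr2:32387798-32387989 (minus strand), Cxcl2 at chr5:90903649-90903870 (plus), Icam1 at chr9:21015690-21015939 (plus), Nfkbia at chr12:55492648-55492897 (minus) and Umod at chr7:119479263-119479512 (minus).
Lcn2: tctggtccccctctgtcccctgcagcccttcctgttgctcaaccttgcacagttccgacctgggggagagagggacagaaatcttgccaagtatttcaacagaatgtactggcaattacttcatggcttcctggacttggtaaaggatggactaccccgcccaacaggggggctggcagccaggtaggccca
Cxcl2: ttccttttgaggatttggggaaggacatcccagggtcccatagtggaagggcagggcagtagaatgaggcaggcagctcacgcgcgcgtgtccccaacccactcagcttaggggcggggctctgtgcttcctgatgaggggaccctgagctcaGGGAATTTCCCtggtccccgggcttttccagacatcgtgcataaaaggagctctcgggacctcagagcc
Icam1: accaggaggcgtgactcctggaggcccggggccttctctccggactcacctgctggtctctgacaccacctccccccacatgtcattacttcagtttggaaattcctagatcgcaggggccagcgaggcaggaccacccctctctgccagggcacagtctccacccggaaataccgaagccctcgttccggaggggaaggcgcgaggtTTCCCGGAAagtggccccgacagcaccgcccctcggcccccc
Nfkbia: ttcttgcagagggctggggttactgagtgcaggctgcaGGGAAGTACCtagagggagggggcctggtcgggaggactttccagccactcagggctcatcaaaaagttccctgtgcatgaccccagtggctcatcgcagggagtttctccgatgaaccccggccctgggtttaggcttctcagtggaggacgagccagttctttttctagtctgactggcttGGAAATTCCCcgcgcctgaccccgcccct
Umod: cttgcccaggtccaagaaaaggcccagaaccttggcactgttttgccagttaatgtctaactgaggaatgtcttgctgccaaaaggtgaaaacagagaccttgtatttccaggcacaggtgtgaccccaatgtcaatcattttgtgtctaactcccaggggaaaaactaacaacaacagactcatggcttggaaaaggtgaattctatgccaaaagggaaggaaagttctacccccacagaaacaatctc
The capitals mark an NF-kappaB match 97 bases before the start in Cxcl2, where a match on the other strand overlaps it, NF-kappaB matches 212 and 29 bases before the start in Nfkbia, and a STAT match 42 bases before the start in Icam1. None of the 4 motifs matched in the stretches of Lcn2 and Umod. The Lcn2 stretch ended 59 bases and the Cxcl2 stretch 29 bases before the start, so the bases nearer the start were not searched. The shares that follow come from windows of 250 bases without this cut. Of all 32851 promoter windows, 17.6% held the NF-kappaB letters, 6.75% those of AP-1, 7.02% those of STAT and 12.4% those of the TATA box. The shares of genes below count a gene when any of its windows matched, so they cannot be set against these shares of windows. Of the genes named below as higher with Lcn2, 127 had a window and 30.7% of these held the NF-kappaB letters, beside 33% of the 106 genes with a window that were lower and 26.4% of all 1494 measured genes with one, so the letters were about as frequent in the genes that were higher as in those that were lower.

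The 5 libraries held 108, 60, 223, 17 and 71 thick ascending limb barcodes, which was 0.212% to 1.28% of their barcodes past the limits. Their median depth was 5349, 8089.5, 6609, 6284 and 3506 UMIs, and the median share of mitochondrial UMIs was 11.7%, 10.2%, 11.1%, 8.47% and 18.5%. Library 4 is too small for most shares, and library 5 was the shallowest with the highest mitochondrial share. No barcode sequence was shared between libraries among the 479, against 300 shared among all barcodes past the limits. Markers of other cells varied between libraries. Summed over 6 genes each, neutrophil markers came to 0 to 47 counts per 1000000 UMIs (CPM) in the 5 libraries and endothelial markers to 0 to 35 CPM, monocyte and macrophage markers came to 226 CPM in library 1 and 3.53 to 55.7 CPM in the others, and the 8 proximal tubule markers came to 2983, 572, 1355, 1052 and 4631 CPM. Kap, a proximal tubule transcript, stood at 14253 to 20659 CPM in barcodes of 10 to 100 UMIs, which stand for free RNA, and 382 of the 479 cells carried at least 2 UMIs of Kap.

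Slc12a1 stood at 3362, 3552, 566, 2587 and 5093 CPM in the thick ascending limb cells of libraries 1 to 5, and Umod at 13713, 15726, 7667, 17267 and 12454 CPM. Both genes chose the cells, so these levels are a description. In library 3 Slc12a1 was lowest, with a median of 4.99 UMIs per 10000 UMIs of a cell against 52.1 in library 5, and many of its cells lay at the edge of the rule. Of the 89 cells with exactly 2 UMIs of Slc12a1, 75 came from library 3, as did 148 of the 170 barcodes that failed with 1 UMI. Another 515 barcodes failed by Slc12a1 alone with 0 UMIs, 462 of them in library 3. Just inside that edge Kcnj1 was at 88.8 CPM and Clu at 7806 CPM, and just outside Kcnj1 was at 62.3 CPM and Clu at 6989 CPM. At 0 UMIs they were at 78.4 and 7184 CPM. The values of library 3 therefore describe only the cells that the rule kept. At the limit for Umod only 6 cells had 3 UMIs and 15 barcodes failed with 2.

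Genes of the segment that the rule did not use were detected in every library. Kcnj1, the ROMK channel, was at 327, 351, 105, 232 and 279 CPM, and Cldn16, a claudin of the calcium and magnesium pore, at 183, 163, 47.7, 168 and 106 CPM. Cldn10, a claudin of the sodium pore, was at 1115, 933, 251, 845 and 914 CPM. Ptger3, a receptor for prostaglandin E that restrains salt uptake in this segment, was at 100.2, 182, 116, 168 and 226 CPM. For Cldn16, Cldn10 and Ptger3 the lowest of the 5 thick limb values lay above the highest value in distal convoluted tubule cells (Slc12a3 at least 3), which was 6.97 CPM for Cldn16, 22.2 CPM for Cldn10 and 17.5 CPM for Ptger3. Kcnj1 did not set the segments apart, since distal convoluted tubule cells ranged from 143 to 718 CPM. Cldn10 was also present in proximal tubule cells (Lrp2 at least 3), at 156 to 317 CPM. Further genes of the distal nephron were detected too: Fxyd2, a sodium pump subunit, held 6568 to 8132 CPM and Tfap2b, a transcription factor, 188 to 355 CPM. Library 3 had the lowest level of Tfap2b. Levels are UMIs from the 3′ ends of transcripts and are compared within a gene only.

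**Figure D1:**
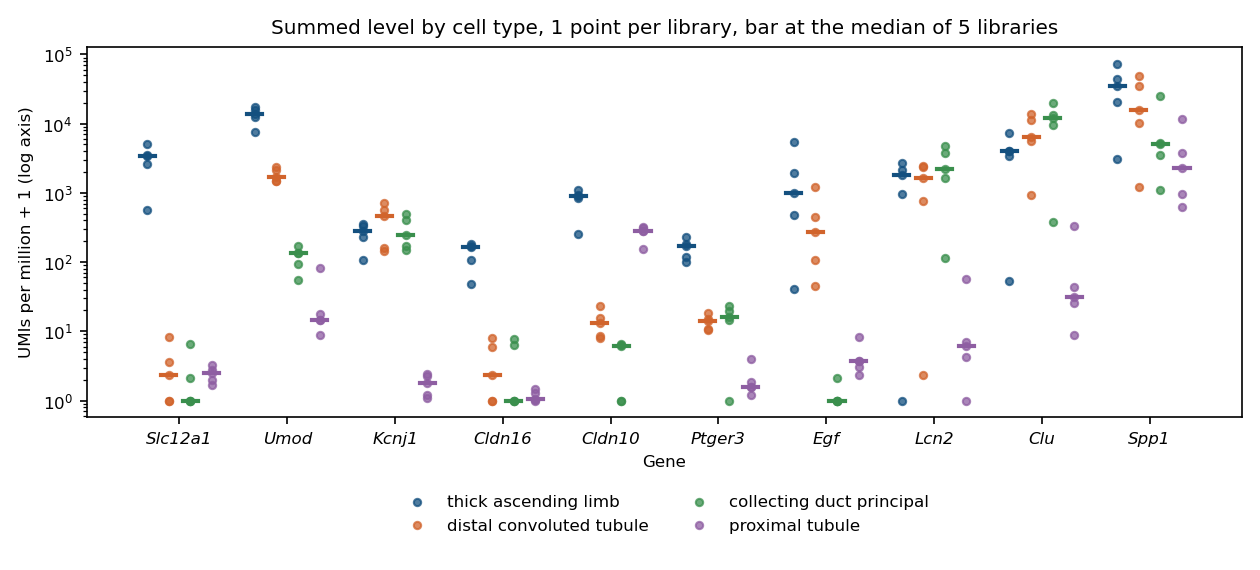
Summed level of 10 genes (CPM plus 1, log axis) in thick ascending limb, distal convoluted tubule, collecting duct principal and proximal tubule cells, where each point is 1 of the 5 libraries and each bar their median. The Cldn16 and Ptger3 points of the thick ascending limb lie above every point of the other 3 cell types (Slc12a1 and Umod chose the cells), whereas those of Lcn2, Clu and Spp1 overlap the distal convoluted tubule. Some points rest on few cells, such as 6 for the collecting duct in library 4.

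Lcn2 divided the thick ascending limb cells. At least 5 UMIs of Lcn2 were counted in 34 of 108 cells of library 1 (31.5%, 95% Clopper-Pearson interval 22.9% to 41.1%), 19 of 60 of library 2 (31.7%, 20.3% to 45.0%), 180 of 223 of library 3 (80.7%, 74.9% to 85.7%) and 11 of 17 of library 4 (64.7%, 38.3% to 85.8%). In library 5 none of the 71 cells held any UMI of Lcn2, which allows a share of cells with a UMI of up to 4.23% by a count of 3 and of up to 5.06% by the Clopper-Pearson limit, at the lowest median depth of the 5 libraries. Libraries 1 and 2 were alike in this share, library 3 lay above both, and the interval of library 4 overlapped those of the others apart from library 5. Cells without a single UMI of Lcn2 numbered 49, 26, 10, 1 and 71. After each cell was thinned to 1000 UMIs at least 1 UMI of Lcn2 remained in 33.3%, 30.0%, 77.1%, 52.9% and 0% of the cells. Over all 5 libraries 244 of 479 cells (50.9%, 46.4% to 55.5%) reached 5 UMIs, a share that fell to 25% without library 3. At the edge of the class, 11 cells had exactly 5 UMIs of Lcn2 and 14 had 4. The intervals cover counting error only.

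**Figure D2:**
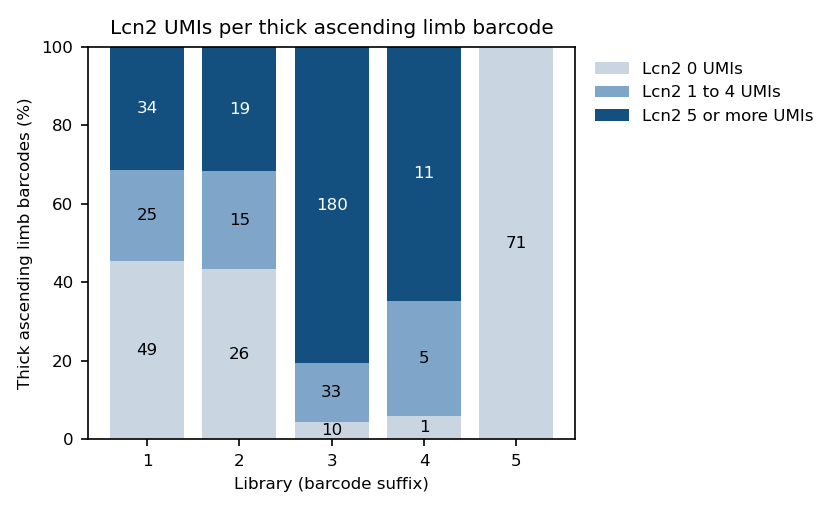
Share of thick ascending limb barcodes (%) with 0, 1 to 4 and 5 or more UMIs of Lcn2 in each library, with the number of barcodes written in each block. Libraries 1 and 2 hold all 3 classes in similar shares, library 3 is mostly in the highest class with 180 barcodes, and library 5 is wholly in the lowest with 71.

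Summed over cells, Lcn2 stood at 969, 2125, 2692, 1800 and 0 CPM in the thick ascending limb. Distal convoluted tubule cells had 751, 1623, 2386, 2446 and 1.34 CPM, from 54, 46, 238, 14 and 157 cells. Collecting duct principal cells (Aqp2 at least 3) had 4681, 2194, 3794, 1622 and 113 CPM, from only 11, 19, 76, 6 and 19 cells. Proximal tubule cells had 5.23, 5.98, 56.9, 3.21 and 0 CPM at median depths of 6429.5 to 8266 UMIs. Free RNA carried Lcn2 at 18.2 to 182 CPM. In libraries 1 to 4 the thick limb level was thus many times the level of free RNA and of proximal tubule cells, and in library 5 it was at 0. Neutrophils, the other known source, had 744, 462, 1700, 336 and 200 CPM at median depths of 1194.5 to 2502 UMIs. They numbered 14, 322, 426, 94 and 2, so the value of library 5 is not a firm level. S100a8 and S100a9, which define neutrophils, reached 2 UMIs together in 13 of the 479 thick ascending limb cells.

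Cells with at least 5 UMIs of Lcn2 were next set against cells with 0 within a library. Only library 1 had at least 20 cells in both classes (34 against 49), so it carries the calls, and libraries 2 (19 against 26) and 3 (180 against 10) are given beside it. UMIs were summed per class and scaled to CPM without Lcn2, and the log2 ratio was taken on CPM plus 10. With 1 library behind the calls there is no replicate and no p-value, and "higher" and "lower" mean a log2 ratio of at least 1 in either direction. Among 1848 genes with at least 50 UMIs in library 1, 160 were higher in the Lcn2-high cells (8.66%) and 135 lower (7.31%), and the median over all measured genes was 0.13. The 50 UMIs were summed over both classes, so a gene could be measured through the class where it was high. This limits the counts of higher and lower genes in every list below. Each such count is to be read beside the 8.66% and 7.31% over all measured genes, of which 765 had a ratio below 0. The Lcn2-high cells were also the deeper ones in library 1, with a median of 9110.5 against 4380 UMIs and 3242.5 against 1737 genes, and had a lower mitochondrial share, 10.4% against 16.7%. In library 2 the medians were 8805 against 6133 UMIs and in library 3 they were 6955 against 6808.5. The median mitochondrial share was 6.53% against 12.5% in library 2 and 10.8% in both classes of library 3. The part of depth and mitochondrial share in the calls was not tested.

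Genes of tubular injury were higher with Lcn2 in libraries 1 and 2. Of 23 measured members of that list, 18 were higher and none lower in library 1, and the list's median log2 ratio was 1.84 beside 0.13 for all genes. In library 2, 21 of the 23 were above 0, and in library 3 the list's median was -0.04, with 11 above and 12 below 0. Clu (ENSMUSG00000022037), which encodes the secreted chaperone clusterin, had the highest ratio of CPM plus 10, at 5.30. It stood at 5615 CPM in the Lcn2-high cells of library 1 and 133 CPM in the Lcn2-free cells, a log2 ratio of counts of 5.40 (95% interval 4.89 to 5.96, counting error only). Among the epithelial keratins Krt8 was at 1348 against 197 CPM, Krt18 at 532 against 55.8 CPM and Krt19 at 492 against 103 CPM. The calcium-binding S100a6 was at 1150 against 112 CPM and the phospholipid-binding Anxa1 at 385 against 34.3 CPM. Sox4, a transcription factor, was at 421 against 107 CPM, and Lgals3, which encodes galectin 3, at 1941 against 537 CPM. Krt7, Sox9, Tnfrsf12a, Itgb6 and Ccn1 did not reach the limit. Havcr1, which encodes the proximal tubule injury marker KIM-1, was barely detected, with 2 UMIs in the Lcn2-high and 0 in the Lcn2-free cells of library 1.

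Outside that list, Hbegf, a membrane-bound ligand of the EGF receptor, was higher as well, at 940 against 107 CPM, while Erbb4, a receptor of the same family, was at 78.5 against 81.6 CPM. Adamts1, a secreted metalloprotease, was at 517 against 42.9 CPM, and Olfm4, which encodes the secreted glycoprotein olfactomedin 4, at 400 against 38.6 CPM in 17 and 4 cells. Ly6e, an interferon-inducible surface protein, was at 1300 against 210 CPM. Sprr1a, a cornified envelope protein, had 98 UMIs in 8 Lcn2-high cells and 0 in the Lcn2-free cells, with 42.9% of them in 1 cell. In library 3 it went the other way, at 734 against 1942 CPM, a log2 ratio of counts of -1.40 (-1.66 to -1.14). Psca, Gprc5a, Srd5a1 and Plp2 completed the 15 genes with the highest ratios.

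Few chemokines and NF-kappaB targets were abundant enough to measure. Of 4 measured chemokines 3 were higher, beside 8.66% of all measured genes, with a median log2 ratio of 1.56. Cxcl2, a neutrophil chemoattractant, was at 418 against 17.2 CPM, but 74.0% of its UMIs lay in 1 cell and 6 of 34 Lcn2-high cells held any. Cxcl1, of the same family, was at 269 against 94.4 CPM with 38.3% in 1 cell, and Cxcl16 was at 162 against 42.9 CPM. Cxcl10, an interferon-induced chemokine, was at 76.0 against 146 CPM. Of 6 measured genes of the NF-kappaB and STAT3 list, 4 were higher, again beside 8.66% of all measured genes. Icam1, an adhesion molecule for leukocytes, was at 220.5 against 42.9 CPM, and Nfkbia, the inhibitor that NF-kappaB itself induces, at 378 against 77.3 CPM. Nfkbiz and Stat3 had log2 ratios of 1.36 and 1.25, and Socs3 and Junb had 0.78 and -0.46. Of the antimicrobial list Wfdc2, a secreted protease inhibitor, was higher at 6079 against 2121 CPM, and Defb1 and Pigr, which were measured too, had ratios of 0.43 and 0.56.

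In the list of hormones and signals of the thick limb most genes were lower in library 1. Of 10 measured members 6 were lower and 3 higher, beside 7.31% and 8.66% of all measured genes, with a median log2 ratio of -1.75. The median was -2.14 in library 2 and 0.15 in library 3, where 6 of the 10 were above 0. Egf (epidermal growth factor) was at 88.7 CPM in the Lcn2-high and 2589 CPM in the Lcn2-free cells of library 1, a log2 ratio of counts of -4.87 (-5.40 to -4.38), and was found in 11 of 34 cells against 43 of 49. Ckb, which encodes the brain form of creatine kinase, was at 241 against 1859 CPM. The phosphatase inhibitors Ppp1r1a and Ppp1r1b were at 525 against 2048 CPM and at 55.7 against 236 CPM. Wfdc15b was at 380 against 1923 CPM and the prostaglandin receptor Ptger3 at 55.7 against 189 CPM. The 3 members that were higher were Wfdc2, Mal, a protein of apical sorting, at 2235 against 1039 CPM, and Spp1, which encodes osteopontin, at 31203 against 6066 CPM.

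Of 9 measured salt transport genes 2 were lower, beside 7.31% of all measured genes, and none higher in library 1, with a median of -0.49. In library 2 the median was -0.89, with 7 of 9 below 0, and in library 3 it was -0.05. One of them was the kinase Wnk1, at 144 against 571 CPM. Kcnj1 was at 279 against 395 CPM, with a log2 ratio of -0.49, and the sodium pump subunit Atp1b1 had a ratio of -0.46. Fxyd2 had a ratio of 0.07. In the list of divalent ion transport and tight junctions Cldn3 was higher, at 433 against 73.0 CPM, and Tmem207 was lower, at 15.2 against 258 CPM. Cldn16, Cldn19 and Cldn10 had ratios of 0.11, 0.33 and 0.07. Among 6 measured nephron transcription factors Pax8, a factor of kidney development, was higher at 220.5 against 68.7 CPM and Ppargc1a, a regulator of mitochondrial genes, was lower at 106 against 382 CPM. Pou3f3, Tfap2b, Irx1 and Tfcp2l1 did not reach the limit.

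All 22 measured genes of oxidative phosphorylation had ratios below 0, beside 765 of all 1848 measured genes. Of the 22 genes 10 were past the limit, beside 7.31% of all measured genes, and the median was -0.98. Ndufs1 of complex I was at 58.3 against 219 CPM, Cycs, which encodes cytochrome c, at 522 against 1314 CPM and Atp5g1 of the ATP synthase at 917 against 2095 CPM. Of 13 glycolysis genes 1 was lower, Pkm, and the median was -0.39. None of 8 heat shock genes reached the limit, and none of 5 genes of oxidative stress and iron did. Of 15 immediate early genes Fosb, Klf4 and Klf6 were higher and Ier2 was lower, with a median of -0.20, and the median was 0.07 in library 2 and 0.64 in library 3, where 13 of 15 were above 0. Of 4 measured class I genes of antigen presentation B2m and Tapbp were higher, with a median of 1.11. The class II genes Cd74, H2-Aa and H2-Ab1 were all lower in library 1, with 35.2% to 63.0% of their UMIs in 1 cell. The class II list went the other way elsewhere, with a median of 0.64 in library 2 and 1.63 in library 3, and the class I list had a median of 1.04 in library 2 and -0.39 in library 3, where 3 of 4 were below 0. Of 2 measured cell cycle genes Ccnd1 was lower and Hmgb2 had a ratio of 0.03. Both were below 0 in library 2, with a median of -1.55, and above 0 in library 3, with a median of 0.96. Mki67 had at most 3.41 CPM in any library.

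RNA of other cells moved with the contrast in library 1. The 8 proximal tubule markers summed to 605 CPM in its Lcn2-high cells and 7238 CPM in its Lcn2-free cells, with 61.9% of the UMIs of Kap in 1 cell. The 6 monocyte and macrophage markers summed to 93.6 against 502 CPM, with 62.5% of C1qa in 1 cell. Among the 15 lowest ratios Kap, Akr1c21, Slc34a1, Napsa, Miox and Cyp4b1 are known from the proximal tubule, and all 82 UMIs of Ren1, which encodes renin, came from 1 cell. In library 2 the proximal tubule sum was 414 against 921 CPM, where all 22 oxidative phosphorylation genes were again below 0, with a median of -1.34, and in library 3 it was 1341 against 1998 CPM, where 13 of 22 were below 0 and the median was -0.05. The part of this RNA in the calls was not tested. Over the 295 called genes, 8 had at least 50% of their UMIs in 1 cell.

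Library 2 showed most of the same differences and library 3 few of them. Of the 160 genes higher in library 1, 145 had a ratio above 0 in library 2 (90.6%, beside 53.1% of all measured genes) and 85 were past 1 (53.1%, beside 9.63%). In library 3 the counts were 105 (65.6%, beside 51.9%) and 19 (11.9%, beside 7.95%). The 19 include genes with 0 UMIs in the Lcn2-free cells there. Of the 135 lower genes 124 were below 0 in library 2 (91.9%, beside 46.9%) and 82 past the limit (60.7%, beside 11.4%). In library 3 the counts were 61 (45.2%, beside 48.1%) and 1 (0.741%, beside 1.41%). Clu was at 8227 against 138 CPM in library 2 and Egf at 82.4 against 4557 CPM. In library 3 Clu was at 7346 against 6993 CPM, with a log2 ratio of counts of 0.07 (-0.06 to 0.20), and Egf at 40.6 against 42.2 CPM, the latter from 3 UMIs, with a log2 ratio of counts of -0.06 (-1.67 to 2.26). The 10 Lcn2-free cells of library 3 were therefore close to its Lcn2-high cells in Clu, and their Egf level was loosely fixed. Of the 15 highest ratios 14 were past 1 in library 2, with Psca the exception and past the limit in the other direction at 22.5 against 71.8 CPM, and 2 in library 3, Cxcl2 and Olfm4, both against 0 UMIs. Sprr1a and Srd5a1 were past the limit in the other direction in library 3, with ratios of -1.39 and -1.31. Of the 15 lowest, 6 were past the limit in library 2 and none in library 3, and Akr1c21 was past it the other way in library 2, at 1.32.

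**Figure D3:**
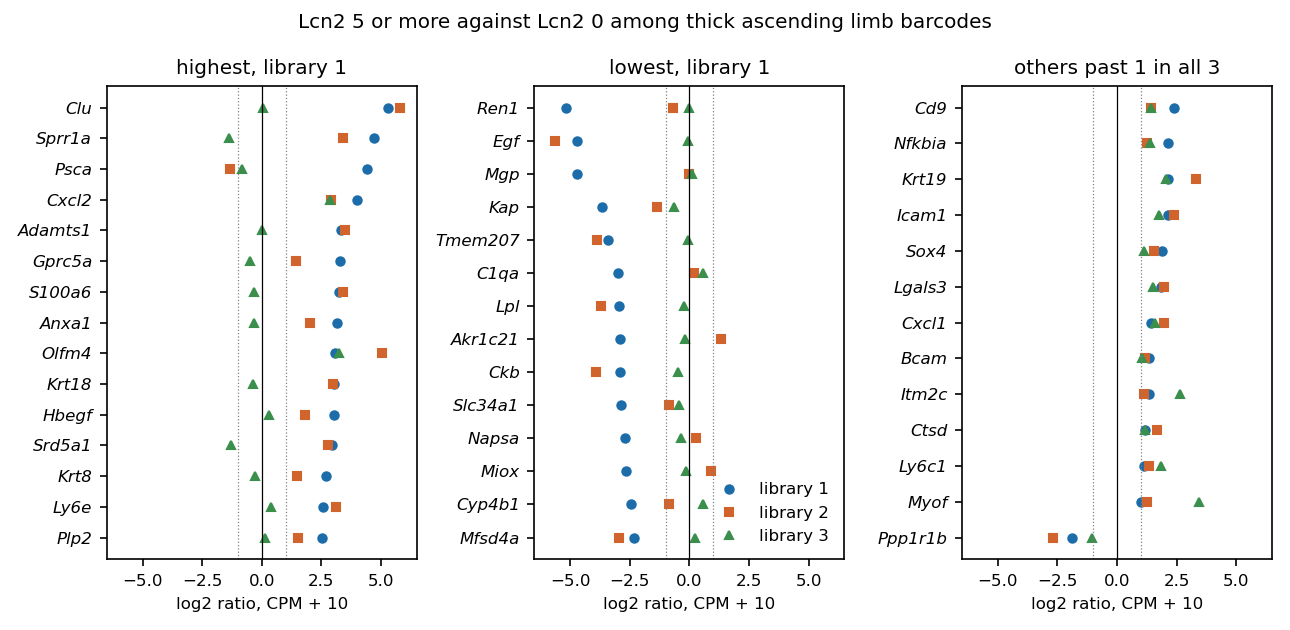
Log2 ratio of CPM plus 10 between thick ascending limb barcodes with 5 or more and with 0 UMIs of Lcn2, for genes with the highest and the lowest ratios in library 1 and for other genes past 1 in libraries 1, 2 and 3 (circles, squares and triangles). Dotted lines mark a ratio of 1 either way, and the triangles of library 3 mostly lie between these lines in the left and middle panels, for example Clu at 0.07, with Cxcl2 and Olfm4, both against 0 UMIs, past the upper line.

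Ratios were past the limit in all 3 libraries for 15 higher genes and for 1 lower gene, Ppp1r1b. Of the 160 genes higher in library 1, 15 were thus past the limit in both other libraries, beside 22 of all 1848 measured genes. These counts include the 7 genes named below that had 0 UMIs in the Lcn2-free cells of library 3. Of the 135 lower genes 1 was, beside 3 of 1848. In libraries 1 and 2 Krt19 had ratios of 2.15 and 3.32, Olfm4 of 3.08 and 5.06, Cxcl2 of 3.98 and 2.90 and Icam1 of 2.12 and 2.40. Lgals3 was at 1941 against 537, 2022 against 502 and 1020 against 352 CPM. Its intervals lay above 0 in each library, but they cover counting error only and not the spread between cells. Sox4, Nfkbia, Cxcl1, Cd9, Bcam, Itm2c, Ctsd, Ly6c1 and Myof were among the others, of which the genes outside the lists were named after their values were seen. In the 10 Lcn2-free cells of library 3 Krt19, Olfm4, Cxcl2, Cxcl1, Icam1, Itm2c and Myof had 0 UMIs, at a depth where 3 UMIs are 42.2 CPM, so that the ratios of these 7 genes in this library are set by the constant of 10 CPM and are not counted as a difference. The Lcn2-high cells there had 31.1 CPM of Krt19, 24.4 CPM of Icam1 and 20.3 CPM of Cxcl1, which is below that level. The constant also lowers ratios in library 2, where the Lcn2-free cells had 0 UMIs of Krt19, 1 each of Olfm4 and Cxcl1 and 2 of Cxcl2, and the ratio of counts was 6.45 (3.95 to 11.8) for Olfm4 and 3.68 (1.74 to 6.78) for Cxcl2.

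In libraries 1 and 2 the summed levels of cells with 1 to 4 UMIs of Lcn2 lay between those of the other classes for several genes. In library 1 Clu stood at 133, 2768 and 5606 CPM in cells with 0, 1 to 4 and at least 5 UMIs of Lcn2, Spp1 at 6066, 15687 and 31149 CPM and Egf at 2589, 956 and 88.5 CPM. These middle values rested on few cells: of the 333 UMIs of Clu in the 25 cells with 1 to 4 UMIs of Lcn2, 274 (82.3%) lay in 2 cells, and the other 23 cells had 554 CPM of Clu. Likewise 64 of the 115 UMIs of Egf lay in 2 cells, and 607 of the 1887 UMIs of Spp1. In library 2 the intermediate cells were near the Lcn2-free ones in Clu and between the classes in Egf, with Clu at 138, 271 and 8191 CPM and Egf at 4557, 2319 and 82.0 CPM (1439.8 CPM for the middle class without 2 cells). In library 3 the 3 classes had 6993, 6631 and 7323 CPM of Clu. The cells of library 5, all without Lcn2, had 53 CPM of Clu, 3051 CPM of Spp1 and 5460 CPM of Egf, and the single Lcn2-free cell of library 4 had 374, 2989 and 5418 CPM, of which Clu rests on 2 UMIs. The Lcn2-free cells of libraries 1 and 2 were nearer to these levels than those of library 3. Slc12a1 was highest in the Lcn2-free class, with 4619, 3067 and 2712 CPM in library 1 (2702 CPM for the middle class without 2 cells) and 6011, 4832 and 1402 CPM in library 2, and in library 3 it was at 647, 645 and 552 CPM. Umod was lower with Lcn2 in libraries 1 and 2, at 17047 and 11411 CPM and at 20550 and 11430 CPM in the lowest and highest class, and higher in library 3, at 4545 and 8347 CPM. Slc12a1 and Umod are part of the rule, so cells with less of either could not enter.

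**Figure D4:**
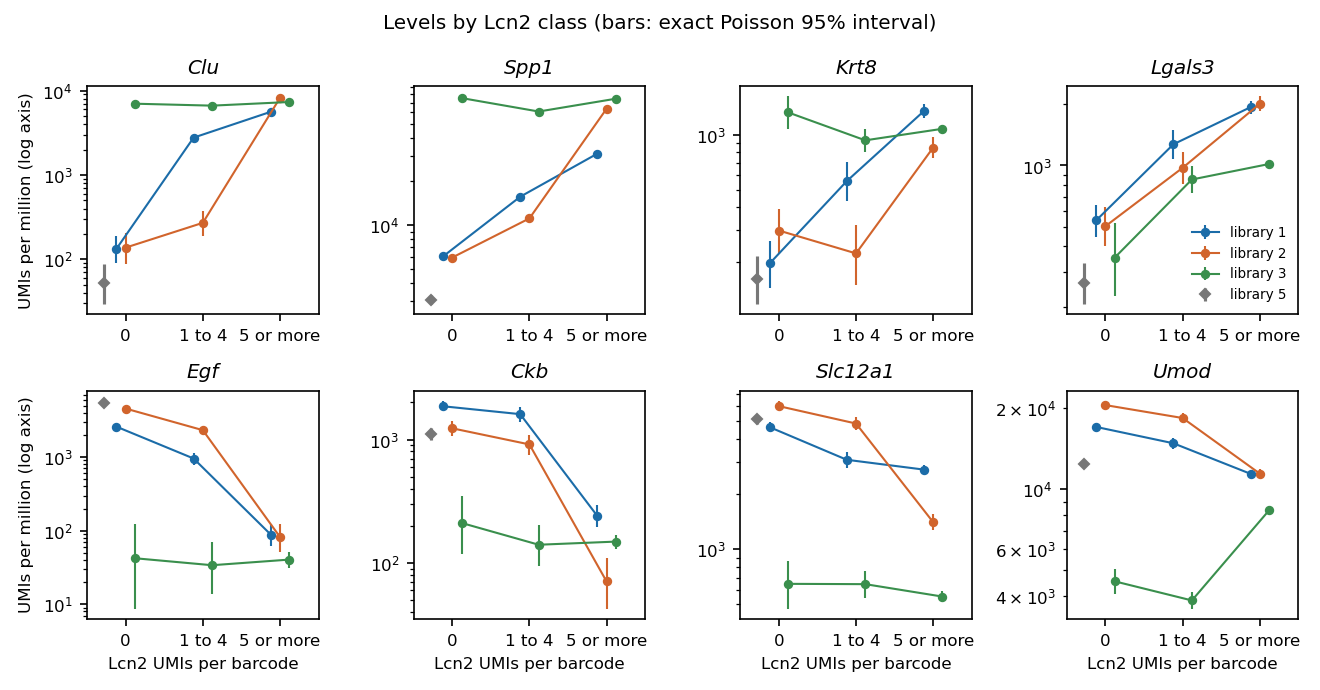
Level of 8 genes (CPM, log axis, vertical bars the exact Poisson 95% interval) in thick ascending limb barcodes with 0, 1 to 4 and 5 or more UMIs of Lcn2 in libraries 1 to 3, with the Lcn2-free cells of library 5 as diamonds. Clu and Spp1 climb and Egf and Ckb fall across the classes of libraries 1 and 2, while the line of library 3 is nearly flat for Clu (6993 to 7323) and Egf (42.2 to 40.5).

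The thick ascending limb is known to hold cells with claudin 10 and others with claudin 16, and the cells were split by these. After thinning to 1000 UMIs, 15 of 56 cells with a Cldn16 UMI also held Cldn10 (26.8%, 15.8% to 40.3%), beside 157 of 423 cells without Cldn16 (37.1%, 32.5% to 41.9%). The share was lower with Cldn16 than without in each of the 5 libraries, for example 6 of 17 against 55 of 91 cells in library 1 and 2 of 15 against 45 of 208 in library 3, and the intervals overlapped. As counted, without thinning, 108 of 167 cells with Cldn16 held Cldn10 (64.7%), beside 225 of 312 without (72.1%). Across libraries 59 cells had Cldn16 only, 225 had Cldn10 only and 87 had neither.

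Cells with Cldn16 only were then set against cells with Cldn10 only. A Cldn16 UMI was found in 56 cells after thinning and in 167 as counted, so these classes depend on depth. A cell counted as Cldn10 only may hold Cldn16 RNA that was not captured, which would make the classes look more alike. No library had 20 cells in both classes, so the 4 libraries with at least 10 were used (libraries 1, 2, 3 and 5, with 14, 11, 19 and 12 cells against 47, 19, 117 and 36). A gene was counted when its median log2 ratio over these libraries was at least 1 and its direction was the same in all 4. Of 4742 measured genes 27 were higher with Cldn16 (0.569%) and 62 with Cldn10 (1.31%). This call is stricter than that of the Lcn2 contrast, which rested on 1 library, so the shares of the 2 contrasts cannot be compared. Median depths pooled over libraries were 6183 and 5735 UMIs, and depth was not matched within a library. Summed Lcn2 also differed between the classes, as given below. Spp1, which was higher with Lcn2 in library 1, met the limit here too, with a median of 1.21. The part of depth and of Lcn2 in the claudin genes was not tested. Foxq1, a forkhead transcription factor, led with 48 UMIs in the Cldn16-only and 12 in the Cldn10-only cells and ratios of 2.46, 1.67, 3.42 and 3.09. Pth1r, the receptor for parathyroid hormone, had ratios of 1.42, 1.81, 2.25 and 1.79, with 327 against 116 CPM in library 1 and 667 against 132 CPM in library 3. Tmem52b, Slc34a2, Igfbp4, Car15, Wnk1, Jag1, Pea15a and Dcdc2a followed. Slc34a2 encodes a phosphate transporter and Jag1 a Notch ligand. Wnk1 and Tmem52b are known to be high in the distal convoluted tubule, and Car15, a membrane carbonic anhydrase, had a ratio of only 0.04 in library 2.

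On the Cldn10 side Ptger3 had ratios of -1.77, -1.96, -1.78 and -2.00. Irx1, a homeobox transcription factor, had ratios of -2.00, -2.23, -1.90 and -3.15. It had 6 UMIs in the Cldn16-only cells and 0 in those of library 5, so the last ratio is set by the constant of 10 CPM. Cryab, which encodes the small heat shock protein alpha-B-crystallin, was at 157 against 604 CPM in library 1 and 103 against 541 CPM in library 3. Pcsk6, a protease of the proprotein convertase family, and Esam, a junction adhesion molecule, had 0 UMIs in the 56 Cldn16-only cells and 51 and 54 in the Cldn10-only cells. In library 3 they were at only 12.6 and 17.9 CPM in the Cldn10-only cells. Ratios against 0 UMIs, as also for Cdc34 in libraries 1, 3 and 5, are set by the constant, and the count of genes on this side includes such genes. Egfl6, Sept4, Eprn, Gdf15 and Cdc34 completed the 10 genes, with Egfl6 at 39.3 against 263 CPM in library 1. Irx2, a homeobox factor of the lists, was also on this side, at a median of -1.39. Cldn19, the partner of claudin 16, had a median of 0.36 and Casr, the calcium-sensing receptor, of 0.81, and both differed in direction in library 2. Kcnj1 had a median of -0.13.

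**Figure D5:**
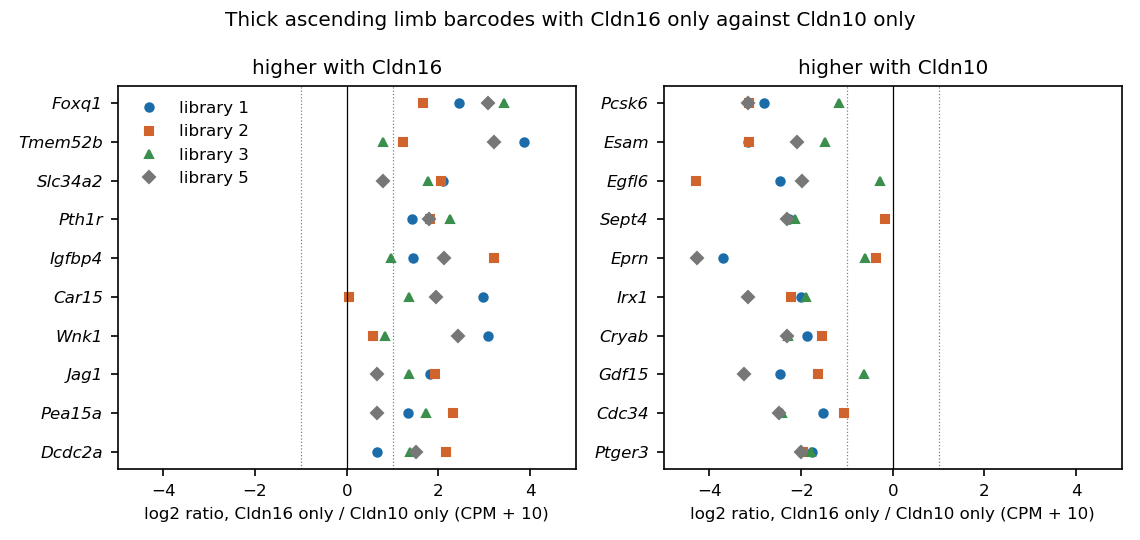
Log2 ratio of CPM plus 10 between thick ascending limb barcodes with Cldn16 only and with Cldn10 only, for the 10 genes with the largest median ratio in each direction, in libraries 1, 2, 3 and 5. The 4 points of Pth1r (1.42 to 2.25) and of Ptger3 (-2.00 to -1.77) lie close together and past 1 either way, and Car15, Egfl6, Sept4 and Eprn each have a point near 0.

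Both claudin classes held Lcn2. Over all libraries at least 5 UMIs were found in 30 of 59 cells with Cldn16 only (50.8%, 37.5% to 64.1%) and in 112 of 225 cells with Cldn10 only (49.8%, 43.1% to 56.5%). By library the counts were 4 of 14 against 8 of 47, 7 of 11 against 4 of 19, 18 of 19 against 96 of 117, 1 of 3 against 4 of 6 and 0 of 12 against 0 of 36. The share was higher with Cldn16 only in libraries 1 (28.6% against 17.0%), 2 (63.6% against 21.1%) and 3 (94.7% against 82.1%), with overlapping intervals in each. Summed Lcn2 was at 1715 against 844, 3505 against 655 and 3951 against 2344 CPM in these libraries.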

How the data were processed

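Kidneys of 5 groups, 1 sample each, were measured by droplet single-cell RNA sequencing with a 3′ kit. The submitters' processing notes name Cell Ranger 6.0 and build mm10, and the authors deposited 1 pooled matrix of raw UMI counts (32285 genes) with no filter on cells. Reads were not aligned again, and doublets were not called. The 479 barcodes, the gene lists and the named genes were chosen with earlier results of these data known, so the lists are described and not tested. The methods count more matrices in all than the 5 barcode suffixes, so a suffix may hold more than 1 library, and which suffix belongs to which group was not analysed here.

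Counts were summed per library and class with Python 3.11.15, numpy 2.4.6, scipy 1.17.1 and pandas 2.3.3. CPM is counts per 1000000 UMIs. Log2 ratios used 10 CPM as pseudocount and genes of at least 50 UMIs summed over both classes, and the calculation was tested on simulated data. Intervals are exact (Poisson for CPM, Clopper-Pearson for shares, binomial for ratios of counts, 95%), and PCR copies are removed by UMIs. Classes needed at least 20 barcodes per library, a minimum lowered to 10 for the claudin contrast after the data were seen, since no library reached 20. Named genes are those of 17 pathway lists (279 of 280 genes in the matrix) and the 15 genes with the largest ratio in each direction for Lcn2 and 10 for the claudins, with predicted genes left out, and some of these genes are not reported here. TMM factors came from edgeR 4.0.16. Other tubule cells were chosen by 1 gene each (at least 3 UMIs of Slc12a3, Aqp2 or Lrp2), and neutrophils by at least 10 UMIs of S100a8 and S100a9 with Ptprc. There were 18 alternatives planned and 6 added after the data were seen.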

Additional observations from a re-analysis of the deposited data

How the results depend on the processing

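Of 76 recomputed values 54 kept within their limit, which still took in 227 higher genes for 160 when libraries were summed first. Some of the 54 could not move. The Lcn2 contrast used library 1 alone, so its gene counts were fixed when library 2, 3, 4 or 5 was left out. Library 4 was not in the claudin contrast, so that count was fixed without it. The 54 therefore overstates how stable the results were. The number of thick ascending limb barcodes (479) was 190 with at most 10% mitochondrial UMIs, 317 with Slc12a1 at least 4 and Umod at least 6, and 80 without barcodes holding RNA of other cell types, which mostly removed barcodes with Kap. The share with Lcn2 at least 5 (50.9%) was 64.7%, 40.1% and 42.5% under these 3 settings and 45.9% with at most 10000 UMIs, and it ranged from 25% (without library 3) to 59.8% (without library 5) when 1 library was left out. Genes higher with Lcn2 (160) numbered 103 for cells with at least 10 Lcn2 UMIs per 10000, 399 with at least 20 UMIs per gene, 40 with at least 200 and 418 in library 3 alone. In library 3 alone 97 genes were lower. Its Lcn2-free class held 10 cells, and ratios of genes with 0 UMIs there are set by the constant of 10 CPM. The part of such genes in the 418 was not tested. Genes lower (135) numbered 247 with libraries summed first, 308 with at least 20 UMIs, 44 with at least 200 and 76 over libraries 1 to 3 with at least 10 barcodes per class. These counts depend on how many genes are measured, and otherwise the cause was not tested. The share of Cldn10 among cells with Cldn16 (26.8%) was 44.4% without other RNA and 64.7% as counted. Genes between the claudin classes (89) numbered 47 with at most 10% mitochondrial UMIs, where only library 3 remained, and 23 with at least 200 UMIs. The Lcn2 contrast had too few cells for a value with at most 10% mitochondrial UMIs, without other RNA, with at most 10000 UMIs, without library 1, with Lcn2 at least 20 and at 3000 to 6000 UMIs, so its calls were not checked at matched depth, and the claudin contrast had too few without other RNA. No paired analysis was possible because no replicate numbers join the groups. Ratios were taken within each library, and the classes come from the same data as the genes, so libraries were not used as pairs in a test.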

Other observations

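The macula densa, the patch of cells at the end of the thick ascending limb that senses salt, is marked by Nos1, the neuronal nitric oxide synthase. A Nos1 UMI was found in 9 of the 479 thick ascending limb cells (1, 2, 4, 0 and 2 in libraries 1 to 5), and 6 cells held at least 3. Pappa2, another macula densa gene, was found together with Nos1 in 1 cell. The rule asks for Slc12a1 and Umod, and Umod is known to be low in the macula densa.

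In distal convoluted tubule cells, split by Lcn2 in the same way, Clu was at 11122 against 1492 CPM in library 1 (14 against 32 cells), 8277 against 1483 CPM in library 2 (10 against 33) and 15002 against 11139 CPM in library 3 (133 against 64). Egf was at 5.62 against 664, 10.6 against 902 and 31.7 against 60.7 CPM. Ckb was at 73.1 against 1473 CPM in library 1 and 153 against 1192 CPM in library 2, Ppp1r1a at 405 against 1334 and 111 against 1702 CPM, and Wfdc15b at 78.7 against 860 and 89.9 against 1131 CPM, so these genes of the thick limb list were also present in distal convoluted tubule cells. In library 3 Ckb was at 141 against 99.9, Ppp1r1a at 367 against 464 and Wfdc15b at 109.5 against 232 CPM. Olfm4 had at most 10.7 CPM in either class of these cells, whereas Lcn2-high thick ascending limb cells had 400, 524 and 83.9 CPM. The difference between the segments was not tested. Tmem207, at 258 CPM in the Lcn2-free thick limb cells of library 1, was at 0 in those of the distal convoluted tubule.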
